A study of Mus musculus with 13 samples.

Results

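The comparison described here is that of female with male mouse hearts after both sexes had received a vector carrying the human progesterone receptor (PR, gene PGR), restricted to genes on the autosomes. All genes on chromosomes 1 to 19 in the broader of the deposited count tables were taken, which gave 51229 of 55536 genes, and genes on X, Y and the mitochondrial genome were left out. Of these, 15614 had enough reads to be tested and 35615 did not, and 23601 had no read in any of the 6 libraries compared. Among the tested genes 12840 were annotated as protein-coding.

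The mice were C57BL/6J, were injected once intraperitoneally on postnatal day 1 with an adeno-associated virus of serotype 6, and were collected on postnatal day 56. The PGR-vector groups hold 3 female libraries (replicates 1, 2 and 4) and 3 male libraries (replicates 1, 2 and 3). The control groups, 4 female and 3 male libraries, received the same serotype with no insert. Each library was made from RNA of nuclei positive for Pcm1, a centriolar satellite protein used to sort cardiomyocyte nuclei, and its tissue label gives 3 to 6 whole ventricular muscles, so a library is a pool of animals. Neither the labels nor the tables name the promoter of the insert.

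The progesterone receptor is a ligand-activated transcription factor of the nuclear receptor family, close to the androgen, glucocorticoid and mineralocorticoid receptors, with which it shares a DNA motif. Female and male hearts differ in their gonadal hormones and in their sex chromosomes, and genes on the autosomes can differ between the sexes through either. RNA from nuclei is rich in unspliced transcripts, and it reports on transcription and nuclear retention more than on the cytoplasmic pool.

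The 6 libraries held 31.8, 47.4 and 55.5 M counts (1 M is 1e+06) in females and 57.9, 45.3 and 50.6 M in males, and autosomal genes took 96.9% to 97.6% of them. Xist stood at 740 to 1203 CPM (counts per M counts of the scaled library) in the female and 0.431 to 1.05 CPM in the male PGR-vector libraries, and Uty on the Y chromosome at 0.184 to 0.218 and 232 to 279 CPM, so that all 6 went with their sex labels. Among the control libraries, female replicate 4 carried reads of Y genes at 1.04% of the male PGR-vector level, against at most 0.116% in every other female library. The mouse Pgr gene cannot be taken as a measure of the human insert, and whether reads of the insert fall on it was not checked. It had 1, 5 and 6 reads in female and 8, 0 and 3 in male PGR-vector libraries, against 0 or 1 in each control library, and was not tested. The 20 cardiomyocyte markers were all detected, and together they took 81516 to 88809 CPM in females and 86974 to 101426 CPM in males. Ttn held 54.1% of that sum over the 6 libraries. Without it the sums were 38372, 42315 and 38752 CPM in females and 42545, 39374 and 46890 CPM in males, with overlap. Markers of lymphocytes summed to at most 4.62 CPM in any of the 6. Pcm1 itself stood at 139, 127 and 116 CPM in females and 114, 124 and 131 CPM in males. Fewer cells of a type and less RNA per nucleus cannot be told apart in such pools.

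In a principal component analysis of the 1000 most variable autosomal genes, the first component held 37.5% of the variance. Female libraries lay at 2.29, −10.3 and −7.02 on it and male libraries at 15.8, −2.89 and 2.05, so the sexes overlapped. On the second, with 28.2% of the variance, females lay at 14.2, 2.15 and −1.005 and males at −1.015, −5.65 and −8.72. Every female library thus lay above every male one on the second component, with female replicate 4 and male replicate 1 almost level. The median standard deviation of log2 CPM within a group, over genes with a mean of at least 1 log2 CPM, was 0.131 in females and 0.111 in males.

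Of 15614 autosomal genes tested, 8 differed between female and male PGR-vector hearts at an adjusted p under 0.05 (0.0512%; edgeR quasi-likelihood test, Benjamini-Hochberg adjustment over all 16125 genes tested). Higher in females were Tfpi, Rp1 and Fmn2 (0.0192%). Higher in males were Atp2b2, Ryr1, Phf21b, A630001G21Rik and the long noncoding RNA Gm33609 (0.032%). Sizes ranged from a log2 difference of 0.46 for Tfpi to −3.09 for Ryr1, where a negative value means lower in females. The call is narrow for all but Atp2b2. When the X, Y and mitochondrial genes were taken out before fitting, Atp2b2 alone passed, at an adjusted p of 0.0403, and the others had adjusted p of 0.0683 to 0.109 (edgeR). The count also turned on single libraries. It was 1 without PGR-vector female 1, 3 without female 2, 3 without female 4, 5 without male 1, 2 without male 2 and 1 without male 3. Among the controls it was 13 without female 2, 25 without female 4 (the library with Y reads), 16 without male 1 and 5 without male 2. DESeq2 gave 60 genes and a fit of the 6 PGR-vector libraries alone gave 41, which held 6 of the 8.

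**Figure D1:**
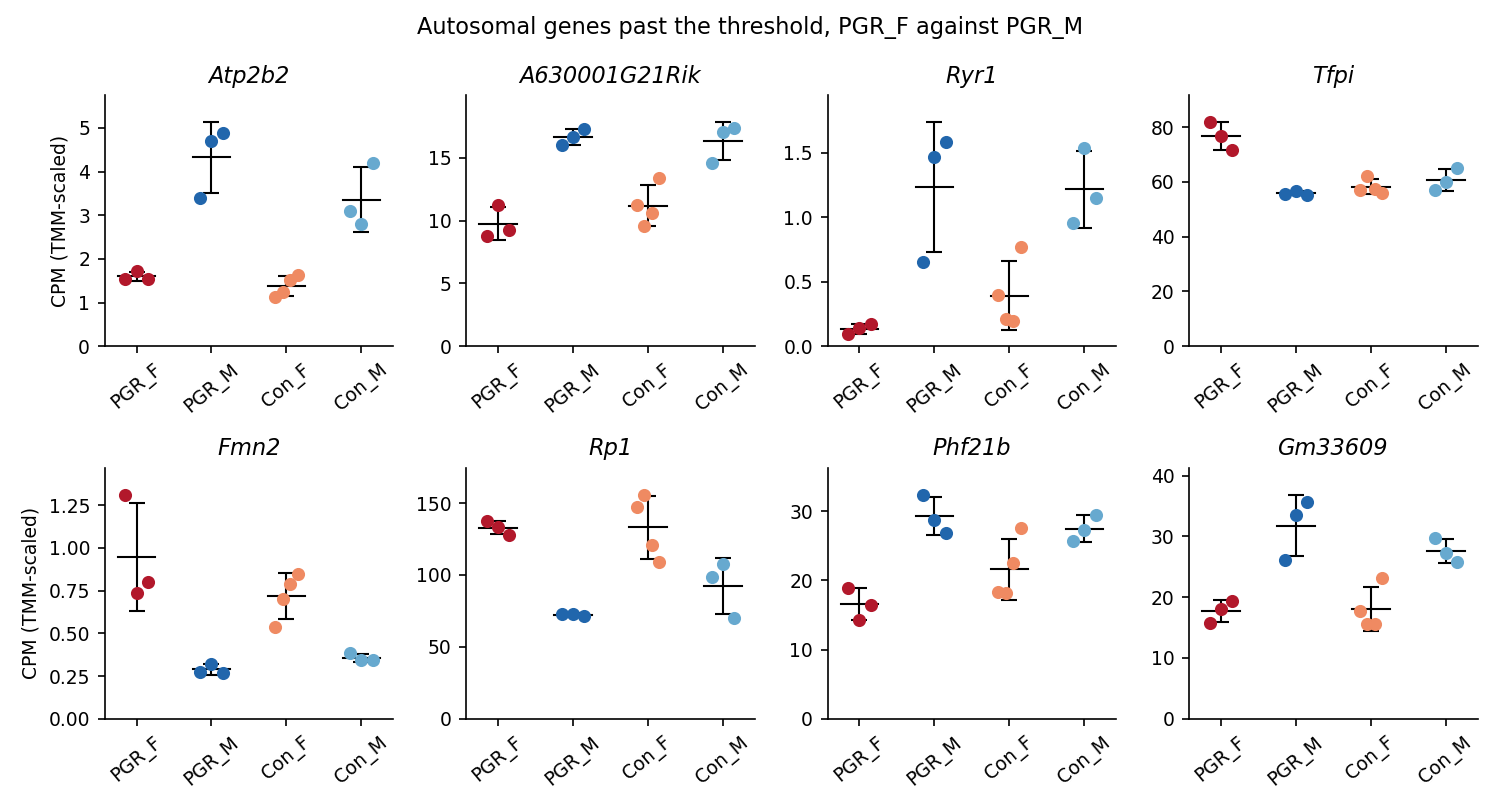
Level of the 8 called autosomal genes in each of the 13 libraries (points, CPM, linear axis from 0) with the mean and standard deviation of each group, by vector and sex. In each PGR-vector panel the female and the male points do not overlap, and in the control panels the sexes overlap for Tfpi and Phf21b.

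Atp2b2, on chromosome 6 at 113743831 to 114042613 on the minus strand (GRCm38, ENSMUSG00000030302), encodes a plasma membrane pump that moves calcium out of the cell and is best known from hair cells and neurons. It stood at 1.53, 1.71 and 1.55 CPM in females and 3.40, 4.69 and 4.89 CPM in males. No female library came near the lowest male one, and the means were 1.60 ± 0.101 and 4.33 ± 0.806 CPM (SD, n = 3 each). Its log2 difference was −1.43 (SE 0.20), or 2.70-fold higher in males, with an adjusted p of 0.00407 in edgeR's quasi-likelihood test. This gene alone was called in all 21 alternatives, with log2 differences between −1.58 and −1.35. Its 3 annotated starts are shown because it was the gene called under every alternative. Each window runs from 250 bases before to 50 after a start, 5′ to 3′ on the minus strand, from RefSeq on GRCm38.p6. Capitals mark the hexamer TGTTCT, the core half-site bound by progesterone, androgen, glucocorticoid and mineralocorticoid receptors.
Atp2b2 start window chr6:114042031-114042330: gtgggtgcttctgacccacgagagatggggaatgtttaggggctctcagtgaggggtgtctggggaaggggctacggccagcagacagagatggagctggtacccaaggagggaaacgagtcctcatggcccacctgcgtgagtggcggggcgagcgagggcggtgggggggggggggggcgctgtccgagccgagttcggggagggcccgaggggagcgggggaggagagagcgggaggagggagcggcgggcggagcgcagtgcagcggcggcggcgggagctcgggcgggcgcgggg
Atp2b2 start window chr6:113934632-113934931: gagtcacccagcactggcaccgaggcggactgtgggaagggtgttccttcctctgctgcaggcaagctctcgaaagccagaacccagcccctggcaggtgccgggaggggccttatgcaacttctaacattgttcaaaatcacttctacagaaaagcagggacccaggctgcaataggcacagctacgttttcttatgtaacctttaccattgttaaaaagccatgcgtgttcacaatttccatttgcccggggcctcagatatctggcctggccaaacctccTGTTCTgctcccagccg
Atp2b2 start window chr6:113891490-113891789: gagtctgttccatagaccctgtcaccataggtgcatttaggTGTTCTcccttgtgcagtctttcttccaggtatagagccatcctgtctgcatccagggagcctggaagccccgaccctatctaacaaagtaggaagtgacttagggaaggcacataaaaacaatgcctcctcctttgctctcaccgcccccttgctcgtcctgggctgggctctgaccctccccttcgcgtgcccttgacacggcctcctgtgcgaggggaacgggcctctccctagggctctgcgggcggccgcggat
The first window held no TGTTCT and the other windows held 1 each. That hexamer, searched on both strands, was present in 19% of all 32817 RefSeq start windows. Among 20 genes, the 8 called and the 12 next in rank named below, 16 had an entry, with 20 windows. Of these, 3 (15%; Atp2b2 and Polq) held TGTTCT. The full palindrome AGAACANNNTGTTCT was in 0.00914% of all windows and in none of the 20. The estrogen receptor half-site AGGTCA was in 16.3% of all windows and in 2 of the 20 (10%; Gm33609 and Tfpi), and the full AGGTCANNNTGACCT in 0.0213% of all and in none of the 20. A match describes letters in the window and not a bound site, and each full motif contains its half-site.

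Ryr1, the calcium release channel of skeletal muscle (chromosome 7, 29003344 to 29125179, minus strand, ENSMUSG00000030592), was scarce in every library. It had 3, 7 and 10 reads in females, or 0.0936, 0.143 and 0.170 CPM, and 38, 68 and 77 reads in males, or 0.656, 1.46 and 1.58 CPM. All male libraries lay above all female ones, and the log2 difference was −3.09 (SE 0.51; edgeR adjusted p = 0.0233). Ryr1 was under the level set for named genes and is named because it passed the test. Since a skeletal muscle gene was among the calls, 10 fast skeletal fibre genes, chosen after its value was seen, were summed. They had 15, 59 and 46 reads in females and 38, 46 and 37 in males, not scaled for library size. Atp2a1 alone held 6, 34 and 24 of these reads in females and 23, 26 and 20 in males. The part of skeletal muscle in the Ryr1 difference was not tested.

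A630001G21Rik, a protein-coding gene known only by its clone name (chromosome 1, 85717083 to 85778643, minus strand, ENSMUSG00000052760), stood at 8.76, 11.3 and 9.27 CPM in females and 16.0, 16.7 and 17.3 CPM in males. The male libraries were close to each other and well above the female ones, and the log2 difference was −0.77 (SE 0.13; edgeR adjusted p = 0.0213). Phf21b, a PHD finger protein of the nucleus (chromosome 15, 84785381 to 84856049, minus strand, ENSMUSG00000016624), had 19, 14.3 and 16.5 CPM in females and 32.4, 28.7 and 26.9 CPM in males. Its groups did not overlap, and the log2 difference was −0.83 (SE 0.15; edgeR adjusted p = 0.038). Gm33609, a predicted long intergenic RNA (chromosome 5, 97143026 to 97149848, plus strand, ENSMUSG00000104736), had 15.8, 18.1 and 19.4 CPM in females and 26.1, 33.6 and 35.7 CPM in males. Its log2 difference was −0.84 (SE 0.15; edgeR adjusted p = 0.038), and again no female library reached the lowest male one.

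Of the genes higher in females, Rp1 was the one with the clearest step at a high level. Rp1, a microtubule-associated protein best known from photoreceptors (chromosome 1, 3999557 to 4409241, minus strand, ENSMUSG00000025900), stood at 137, 133 and 128 CPM in females and 72.7, 73.1 and 71.2 CPM in males. Within each sex the 3 libraries were nearly alike, and the log2 difference was 0.88 (SE 0.15), or 1.84-fold (edgeR adjusted p = 0.0233). Tfpi encodes tissue factor pathway inhibitor, which damps the start of blood coagulation (chromosome 2, 84432855 to 84476775, minus strand, ENSMUSG00000027082). It had 81.8, 76.6 and 71.7 CPM in females and 55.7, 56.7 and 55.2 CPM in males, a log2 difference of 0.46 (SE 0.08), or 1.37-fold (edgeR adjusted p = 0.0233). Fmn2, a formin that nucleates actin filaments (chromosome 1, 174501825 to 174822729, plus strand, ENSMUSG00000028354), was scarce, and is named because it passed the test. It had 1.31, 0.734 and 0.8 CPM in females and 0.276, 0.323 and 0.267 CPM in males, a log2 difference of 1.68 (SE 0.28; edgeR adjusted p = 0.0233). With the replicate number as a block its adjusted p was 0.0844. Leaving out 1 PGR-vector library at a time, Rp1 and Phf21b lost the call in all 6 fits and Tfpi, Ryr1, Fmn2 and Gm33609 in 5 of them.

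The next genes in rank did not pass the test and are given by their values, first those lower in females. Cdh4, the cell adhesion protein R-cadherin, had 119, 136 and 148 CPM in females and 300.2, 266 and 371 CPM in males, a log2 difference of −1.22 (SE 0.22; edgeR adjusted p = 0.0616). Its highest female library stood well below its lowest male one. Nos1, the neuronal nitric oxide synthase, which also occurs at the sarcoplasmic reticulum of cardiomyocytes, had 1.93, 1.75 and 1.40 CPM in females and 3.85, 3.57 and 3.49 CPM in males (log2 −1.11, SE 0.21; edgeR adjusted p = 0.0618). Lgi1, a secreted protein linked to epilepsy, had 11, 11.2 and 8.08 against 19.4, 19.1 and 21.2 CPM (log2 −0.98, SE 0.19; edgeR adjusted p = 0.0907). None of the 3 genes overlapped between the sexes. Slc12a5, a potassium chloride cotransporter, had 2.78, 2.98 and 3.17 against 5.65, 5.34 and 6.22 CPM (log2 −0.94, SE 0.19; edgeR adjusted p = 0.0914). Ntng2, the membrane-anchored netrin G2, had 8.11, 7.36 and 8.92 against 14.4, 18.2 and 16.8 CPM (log2 −1.02, SE 0.20; edgeR adjusted p = 0.096). Polq, a DNA polymerase of end-joining repair, had 9.98, 9.10 and 9.34 against 13.1, 13.1 and 16.1 CPM (log2 −0.57, SE 0.12; edgeR adjusted p = 0.11). Here too each female library lay below each male one. Reads of 7 neuronal and glial marker genes, chosen after these values were seen, summed to 14, 21 and 28 in females and 16, 16 and 39 in males. Tubb3 among them had no read in any of the 13 libraries. The sarcomere gene Myom1, Cpt1b of fatty acid oxidation, Cox4i1 of the respiratory chain and the ribosomal protein gene Rpl13 also had none. A count of 0 is therefore not evidence that a gene was silent.

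The next genes on the side of higher female levels did not pass either. Fgf14, an intracellular fibroblast growth factor that binds sodium channels, had 1189, 979 and 1003 CPM in females and 682, 750 and 731 CPM in males, a log2 difference of 0.55 (SE 0.12; edgeR adjusted p = 0.125). Plxdc2, a plexin domain membrane protein, had 189, 159 and 167 against 114, 136 and 104 CPM (log2 0.54, SE 0.12; edgeR adjusted p = 0.135). Both were separate between the sexes without passing the test. Unc13b, which primes secretory vesicles, had 65.9, 57.5 and 52.2 against 44.9, 43.1 and 41.6 CPM (log2 0.44, SE 0.09; edgeR adjusted p = 0.11). Cfap61, a protein of cilia and flagella, had 89.4, 87.4 and 102 against 55.6, 64.1 and 57.5 CPM (log2 0.66, SE 0.14; edgeR adjusted p = 0.117). Cenpf, a kinetochore protein of dividing cells, had 30.1, 24.3 and 22.0 against 17.1, 17.7 and 17.0 CPM (log2 0.56, SE 0.12; edgeR adjusted p = 0.118). Galnt17, of the family that starts O-linked glycosylation, had 122, 92.1 and 115 against 91.1, 64.0 and 60.5 CPM (log2 0.61, SE 0.14; edgeR adjusted p = 0.142). In all 4 of these genes the lowest female library lay above the highest male one. At an adjusted p under 0.1 there were 16 genes, 5 higher and 11 lower in females (edgeR).

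Most autosomal genes differed little. On the log2 scale the median absolute difference was 0.114, against a median standard error of 0.151. An absolute log2 difference above 1 was seen in 187 genes, of which 21 had a mean of at least 1 log2 CPM. An unadjusted p under 0.05 was reached by 1114 genes (7.13%), where 781 would be reached if no gene differed, with 620 (3.97%) higher and 494 (3.16%) lower in females (edgeR). The libraries of the sexes did not overlap in 2117 genes (13.6%), with females above in 1104 (7.07%) and males above in 1013 (6.49%). With 3 libraries against 3, an exact two-sided permutation test of a single gene cannot go below 0.1. The 8 calls lay on 6 chromosomes, with 3 of them on chromosome 1, and the median log2 difference was between −0.01 and 0.02 on every autosome.

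The control-vector libraries, which share no library with the PGR-vector ones, show how far these differences were also there without the human receptor. There, 24 autosomal genes passed the test (0.154%), 8 higher (0.0512%) and 16 lower (0.102%) in females (edgeR). None of them passed when the X, Y and mitochondrial genes were taken out before fitting. Of the 8 genes called under the PGR vector, 7 differed in the same direction under the control vector, each with an unadjusted p under 0.05. Over all tested genes the 2 log2 differences had the same sign in 9687 (62.0%). Atp2b2 was the single gene called in both, which is 12.5% of the PGR-vector and 4.17% of the control-vector calls. Its control levels were 1.13, 1.24, 1.51 and 1.64 CPM in females and 3.09, 2.79 and 4.20 CPM in males, a log2 difference of −1.29 (SE 0.19; edgeR adjusted p = 0.00799). The female levels lay below 2 CPM and the male levels above it under either vector.

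Cdh4, Lgi1 and Nos1 were also called under the control vector and had an adjusted p under 0.1 under the PGR vector. Their control calls, like all the others, were lost in the fit without X, Y and mitochondrial genes. For Cdh4 the control log2 difference was −1.19 (SE 0.20; edgeR adjusted p = 0.0344), with females at 113 to 213 and males at 300.3 to 396 CPM. For Lgi1 it was −1.02 (SE 0.18; edgeR adjusted p = 0.0344), and for Nos1 −1.05 (SE 0.20; edgeR adjusted p = 0.0457). Each is within its standard error of the value under the PGR vector. Ryr1 had 0.191 to 0.767 CPM in control females and 0.955 to 1.54 CPM in control males, a log2 difference of −1.62 (SE 0.41) that did not pass (edgeR adjusted p = 0.143). Rp1 had 109 to 156 CPM in control females and 70.2 to 108 CPM in control males (log2 0.53, SE 0.14; edgeR adjusted p = 0.155). Both genes separated the sexes under either vector. Fmn2 had 0.537 to 0.846 against 0.342 to 0.384 CPM (log2 0.97, SE 0.27; edgeR adjusted p = 0.181).

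**Figure D2:**
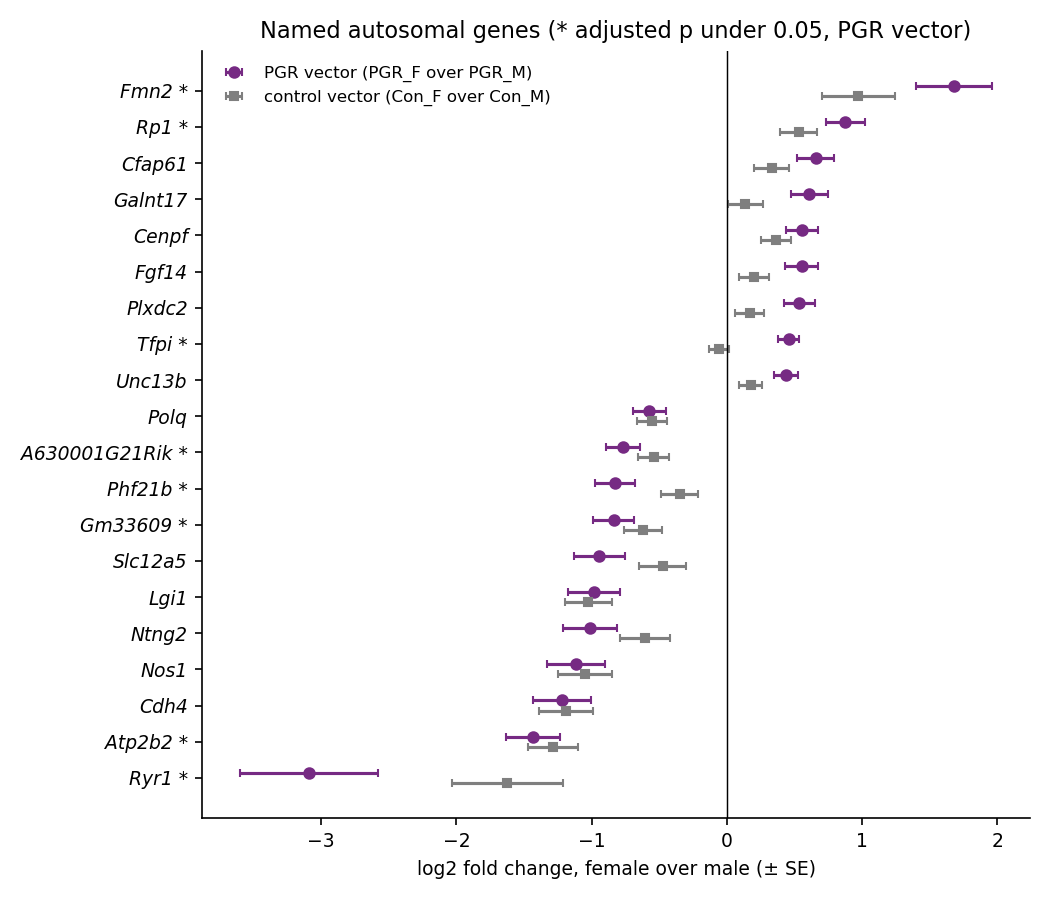
Log2 difference between females and males (points) with its standard error (bars) for the called and next-ranked autosomal genes, under the PGR vector and under the control vector. All but Tfpi lie on the same side of 0 under both vectors, with Atp2b2 at −1.43 and −1.29.

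Over all 15614 genes the sex differences under the 2 vectors had a Pearson r of 0.387 and a Spearman rho of 0.404, across genes, which are not independent replicates. Among the 10841 genes with a mean of at least 1 log2 CPM these were 0.416 and 0.387. Both comparisons come from 1 fit and share its estimate of the spread and its scaling. Of the 24 genes called under the control vector, 23 (95.8%) had the same sign under the PGR vector and 13 of them also had an unadjusted p under 0.05. Of the 1114 genes with an unadjusted p under 0.05 under the PGR vector, 935 (83.9%) had the same sign under the control vector. At an unadjusted p under 0.05 under both, 354 genes had the same and 8 the opposite sign. Of the 15614 genes, the sexes did not overlap under either vector, in the same direction, in 150 with females above and 114 with males above. Under the PGR vector alone the shares were 7.07% and 6.49%. How many genes would coincide in unrelated comparisons was not worked out. Under the control vector alone, the sexes did not overlap in 1768 genes (11.3%), with females above in 1002 (6.42%) and males above in 766 (4.91%), and 1919 genes (12.3%) had an unadjusted p under 0.05, 1137 (7.28%) higher and 782 (5.01%) lower in females (edgeR).

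**Figure D3:**
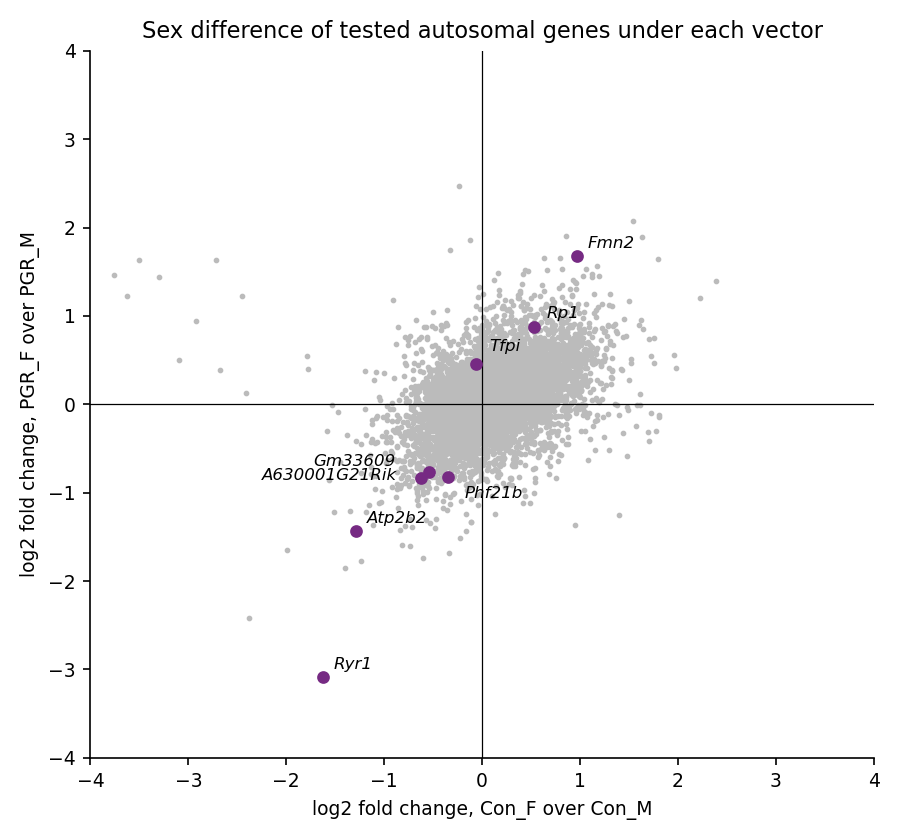
Log2 difference between females and males under the PGR vector (y axis) against that under the control vector (x axis), 1 point per tested autosomal gene, with called genes marked. Over all genes r was 0.387, and Atp2b2 is the gene called under both vectors.

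Whether a sex difference depended on the vector was tested as the difference of the 2 sex differences. No autosomal gene passed (0%), the smallest adjusted p was 0.737, and 503 genes (3.22%) had an unadjusted p under 0.05, 260 (1.67%) higher and 243 (1.56%) lower (edgeR). The unadjusted count was 443 by DESeq2, which called 1 gene (Gm15283, a predicted gene), and 493 by limma-voom, which called none. Among genes that are not predicted and have a mean of at least 1 log2 CPM, Tfpi had the smallest unadjusted p of those with a higher difference under the PGR vector. In control libraries it stood at 57.2, 62.2, 57.6 and 56.0 CPM in females and 57.2, 59.9 and 65.0 CPM in males, a log2 difference of −0.06 (SE 0.07). Only the 3 PGR-vector female libraries, at 71.7 to 81.8 CPM, lay above all 10 other libraries. The difference of its log2 differences was 0.52 (SE 0.10; unadjusted p = 0.000171, edgeR), which did not pass after adjustment. Ccdc146, a centrosomal coiled-coil protein, had 11.5 to 14.5 CPM in control females and 17.6 to 18.4 CPM in control males, but 16.9 to 19.8 and 15.8 to 17.0 CPM under the PGR vector (0.61, SE 0.14). In the other direction, Gng2, a G protein gamma subunit, had 1.98 to 3.76 against 0.965 to 1.65 CPM under the control vector and 2.35 to 3.85 against 3.13 to 3.39 CPM under the PGR vector (−1.13, SE 0.33). Neither passed. Foxp2 (0.57, SE 0.15), Zc3h6 (0.69, SE 0.19) and Ccdc62 (0.44, SE 0.13) came next among those higher. Blcap (−0.33, SE 0.09), Pebp1 (−0.58, SE 0.17), Stxbp2 (−0.49, SE 0.15) and Gpr157 (−0.44, SE 0.13) came among those lower, and none passed.

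The 31 gene lists held no called gene, against 0.0512% of all tested autosomal genes, and are described by their counts. Over all 15614 genes 8234 lay above 0, meaning higher in females, and the median was 0.01. Lists for the contractile and electrical machinery were centred near 0. Of 29 tested sarcomere and Z-disc genes 10 lay above 0 with a median of −0.06, of 23 calcium handling genes 12 (median 0.01), of 25 ion channel and gap junction genes 10 (median −0.02) and of 20 beta-adrenergic genes 14 (median 0.03). None of the 23 calcium handling genes separated the sexes, where 13.6% of all tested genes did so in either direction. Males lay above in 3 and females in 1 of the ion channel genes. For the sarcomere genes these counts were 2 and 0, and for the beta-adrenergic genes 0 and 2. At an unadjusted p under 0.05, 4 ion channel genes were lower and 0 higher in females, against 3.16% and 3.97% of all (edgeR). There, the sarcomere list had 1 and 0 and the beta-adrenergic list 0 and 2. Mybpc3, a thick filament protein, had 1083, 1321 and 1253 CPM in females and 1508, 1487 and 1459 CPM in males (log2 −0.28, SE 0.14). Kcnd3, a channel of the transient outward potassium current, had 643, 676 and 613 against 735, 774 and 773 CPM (log2 −0.24, SE 0.10). Grk5, a kinase that desensitises beta-adrenergic receptors, had 157, 155 and 209 against 112, 102 and 150.2 CPM (log2 0.52, SE 0.18). The libraries of the sexes did not overlap in these 3 genes, and none passed the test.

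Of 13 tested fetal and hypertrophy genes 10 lay below 0, with a median of −0.13. Ankrd1, a stretch-responsive repressor of the Z-disc and nucleus, had 88.9, 98.6 and 90.8 CPM in females and 105, 138 and 249 CPM in males (log2 −0.82, SE 0.30; edgeR adjusted p = 0.583). Without male replicate 3 the log2 difference was −0.40. Acta1, skeletal alpha-actin, had 1.34, 3.18 and 2.31 against 3.40, 3.79 and 4.82 CPM (log2 −0.79, SE 0.29; edgeR adjusted p = 0.547). Under the control vector the same list had 6 of 13 above 0 and a median of −0.05.

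The metabolic lists lay on different sides of 0. Of 40 tested genes of fatty acid uptake and oxidation 35 lay below 0, with a median of −0.15 and a range of −0.77 to 0.06, and none reached an unadjusted p under 0.05. The mean log2 CPM of the list was 6.59, 6.68 and 7.15 in females and 7.14, 6.83 and 6.99 in males, so the sexes overlapped, with female replicate 4 the highest of the 6. Under the control vector 30 of 40 lay below 0, with a median of −0.20. Of 27 glycolysis and glucose uptake genes 11 lay above 0 and 16 below (median −0.03). Pfkp, a phosphofructokinase, was among those below, with 81.6, 95.0 and 84.6 against 106, 104 and 112 CPM (log2 −0.30, SE 0.12). Of 30 citric acid cycle genes 20 lay above 0 (median 0.07) and of 39 nuclear genes of the respiratory chain 28 (median 0.04). The log2 differences ran from −0.11 to 0.17 in the citric acid cycle list and from −0.26 to 0.17 in the respiratory chain list. Aldoa in the glycolysis list and Atp5o in the respiratory chain list were each counted more than once, as separate annotated entries.

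Lists of steroid hormone targets bear on the receptors in question. Of 19 tested androgen-responsive genes 15 lay below 0 with a median of −0.15, against 13 under the control vector (median −0.05). At an unadjusted p under 0.05, 1 was higher and 0 lower in females, against 3.97% and 3.16% of all tested genes (edgeR). In 1 gene females lay above males without overlap and in 0 males above (7.07% and 6.49% of all). Members such as Pmepa1, Mt2 and Fkbp5 are also in the progesterone and glucocorticoid list below. Pmepa1, a feedback inhibitor in TGF-beta and androgen signalling, lay above 0, at 31.8, 34.5 and 34.1 CPM in females and 30.3, 29.7 and 29.5 CPM in males (log2 0.17, SE 0.07; edgeR adjusted p = 0.659). Of 33 progesterone- and glucocorticoid-responsive genes 10 lay above 0 (median −0.05), with 2 separated with females above and 1 with males above, near the share over all tested genes (7.07% and 6.49%). In this list 3 members were higher and 1 lower in females at an unadjusted p under 0.05, against 3.97% and 3.16% of all tested genes (edgeR). Bmp2 (log2 0.91, SE 0.36) and Gas1 (log2 0.52, SE 0.23) were among those higher, and neither passed after adjustment. Metallothionein Mt2, which ranked behind them, had 0.530, 0.286 and 0.681 against 1.97, 0.731 and 0.575 CPM (log2 −1.14, SE 0.59), with overlap, and male replicate 1 was the highest. Of 16 estrogen-responsive genes 6 lay above 0 (median −0.07), against 9 under the control vector (median 0.002). Vegfa, the vascular growth factor, had 617, 578 and 696 CPM in females and 848, 753 and 881 CPM in males (log2 −0.39, SE 0.14; edgeR adjusted p = 0.529), against a log2 difference of 0.00 under the control vector. The difference between the vectors did not pass for Vegfa or any other autosomal gene (edgeR). Ccnd1, cyclin D1, had 1.56, 1.69 and 1.55 against 2.31, 2.43 and 2.30 CPM (log2 −0.55, SE 0.16; edgeR adjusted p = 0.385). Neither overlapped between the sexes and neither passed.

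The steroid receptors themselves were described in the same way. Of 25 tested steroid receptors and cofactors 11 lay above 0, with a median of −0.01. Esr1, estrogen receptor alpha, had 2.12, 1.88 and 1.40 CPM in females and 1.30, 1.72 and 1.68 CPM in males (log2 0.19, SE 0.23). Nr3c1, the glucocorticoid receptor, had 227, 194 and 199.9 against 181, 210.4 and 221 CPM (log2 0.02, SE 0.11), and Nr3c2, the mineralocorticoid receptor, 1191, 1117 and 778 against 888, 1034 and 859 CPM (log2 0.15, SE 0.15). The sexes overlapped in each. Esr2 had at most 7 reads in any of the 6 libraries and was not tested.

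Among the remaining functional lists, the 23 tested cell cycle genes had 15 above 0 (median 0.13), and 4 separated the sexes with females above and 1 with males above, where 7.07% and 6.49% of all tested genes did so. Cdk1, the mitotic kinase, had 14, 10 and 16 reads in females and 8, 4 and 4 in males, or 0.437, 0.204 and 0.272 against 0.138, 0.0861 and 0.0821 CPM (log2 1.47, SE 0.40; edgeR adjusted p = 0.307). Pcna, the replication clamp, had 1.97, 2.61 and 2.25 against 1.31, 1.79 and 1.72 CPM (log2 0.51, SE 0.18). Ccnd1, already given, lay on the opposite side. Of 33 cytosolic ribosomal protein genes 28 lay above 0, with a median of 0.05, and 5 separated with females above and none with males above, against the same 7.07% and 6.49%. Rps14 had the largest of these differences, at 26.3, 28.8 and 31.4 against 24.0, 23.1 and 25 CPM (log2 0.26, SE 0.10). Under the control vector 31 of the 33 ribosomal protein genes lay above 0 (median 0.17). Of 35 interferon response genes 27 lay above 0 (median 0.16), and 1 separated the sexes with females above (7.07% of all genes did), Tapbp of antigen loading, at 17.4, 19.1 and 18.0 against 15.1, 13.5 and 13.1 CPM (log2 0.39, SE 0.09; edgeR adjusted p = 0.216). The interferon list's mean log2 CPM was 2.12, 1.48 and 1.03 in females and 1.68, 1.22 and 1.36 in males, with overlap. Under the control vector 34 of its 35 genes lay above 0 (median 0.55). Autosomal factors of X inactivation and dosage had 13 of 29 above 0, with a median of −0.01. Inflammation (7 of 13), immediate early genes (12 of 20), the circadian clock (11 of 18), the unfolded protein response (12 of 21) and the p53 response (8 of 18) had medians from −0.03 to 0.09.

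**Figure D4:**
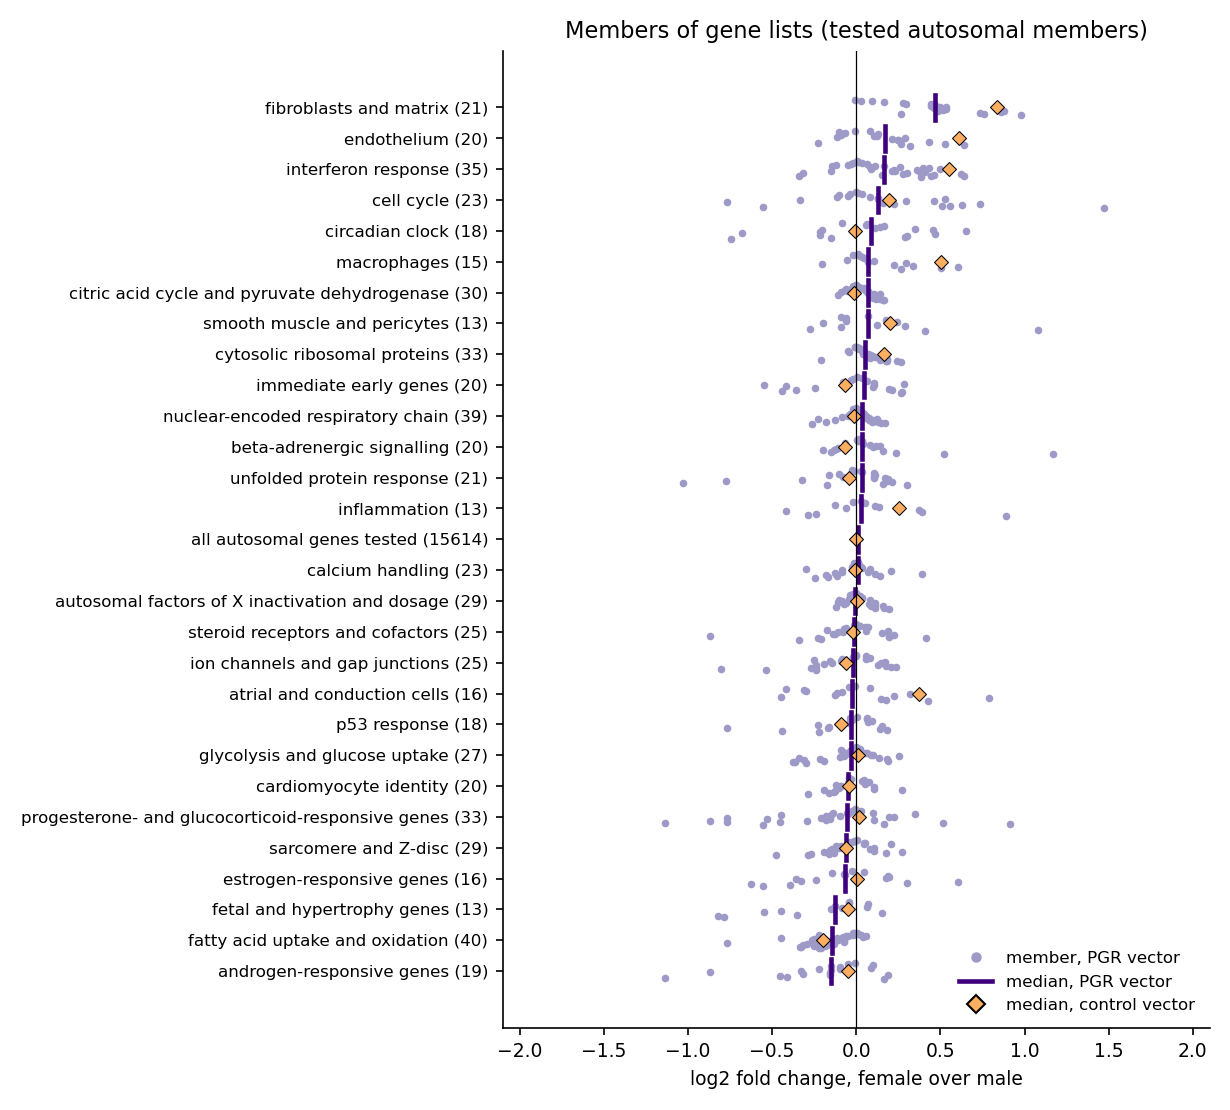
Log2 difference between female and male PGR-vector libraries for the tested members of the 28 gene lists with at least 5 of them (points), with the list median as a bar and the control-vector median as a diamond. Fibroblast genes sit highest, at a median of 0.47, and most others lie within 0.2 of 0.

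Markers of other cell types in the sorted nuclei were summed by library. Of 21 fibroblast and matrix genes 20 lay above 0, with a median of 0.47. None was called or separated the sexes, where 0.0512% and 13.6% of all tested genes did. Their summed level was 183 to 352 CPM in females and 141 to 276 CPM in males, so the ranges overlapped in part. Lum, a matrix proteoglycan, had 2.03, 3.75 and 2.96 CPM in females and 0.881, 2.22 and 1.42 CPM in males (log2 0.98, SE 0.34; edgeR adjusted p = 0.536). Under the control vector 21 of 21 lay above 0, with a median of 0.84 and sums of 239 to 334 CPM in females and 119 to 214 CPM in males. Endothelial genes had 14 of 20 above 0 (median 0.17), with sums of 998 to 1366 CPM in females and 1182 to 1495 CPM in males. Cd36, which also takes up fatty acids in cardiomyocytes, held 92.2% of that sum over the 6 libraries and lay below 0 (log2 −0.23). Without it the sums were 70.9, 132 and 107 CPM in females and 58.1, 108 and 99.2 CPM in males, with overlap. Smooth muscle and pericyte genes had 7 of 13 above 0 (median 0.07; 919 to 1007 and 946 to 1070 CPM), and Smtn held 65.6% of the sum. Macrophage genes had 12 of 15 above 0 (median 0.07; 30.2 to 37.3 and 22.5 to 36.2 CPM). Itgam was at 0 in all 13 libraries, as were Myom1, Cpt1b, Cox4i1 and Rpl13. Atrial and conduction genes had 7 of 16 above 0 (median −0.02; 966 to 1271 and 1006 to 1120 CPM), and Kcnj3 held 69.4% of the sum. The 4 tested erythroid genes all lay below 0 (median −0.47; 3.59 to 4.65 and 4.65 to 8.25 CPM). Of the lymphocyte list 1 gene, and of the adipocyte, epicardial and neural list 2 genes, had enough reads to be tested. Under the control vector 19 of 20 endothelial (median 0.61), 13 of 15 macrophage (median 0.51) and 13 of 16 atrial and conduction genes (median 0.37) lay above 0. There 11 of 13 smooth muscle and pericyte genes lay above 0 (median 0.20), and all 4 erythroid genes below it (median −0.46). The part of these markers in the differences above was not tested.

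**Figure D5:**
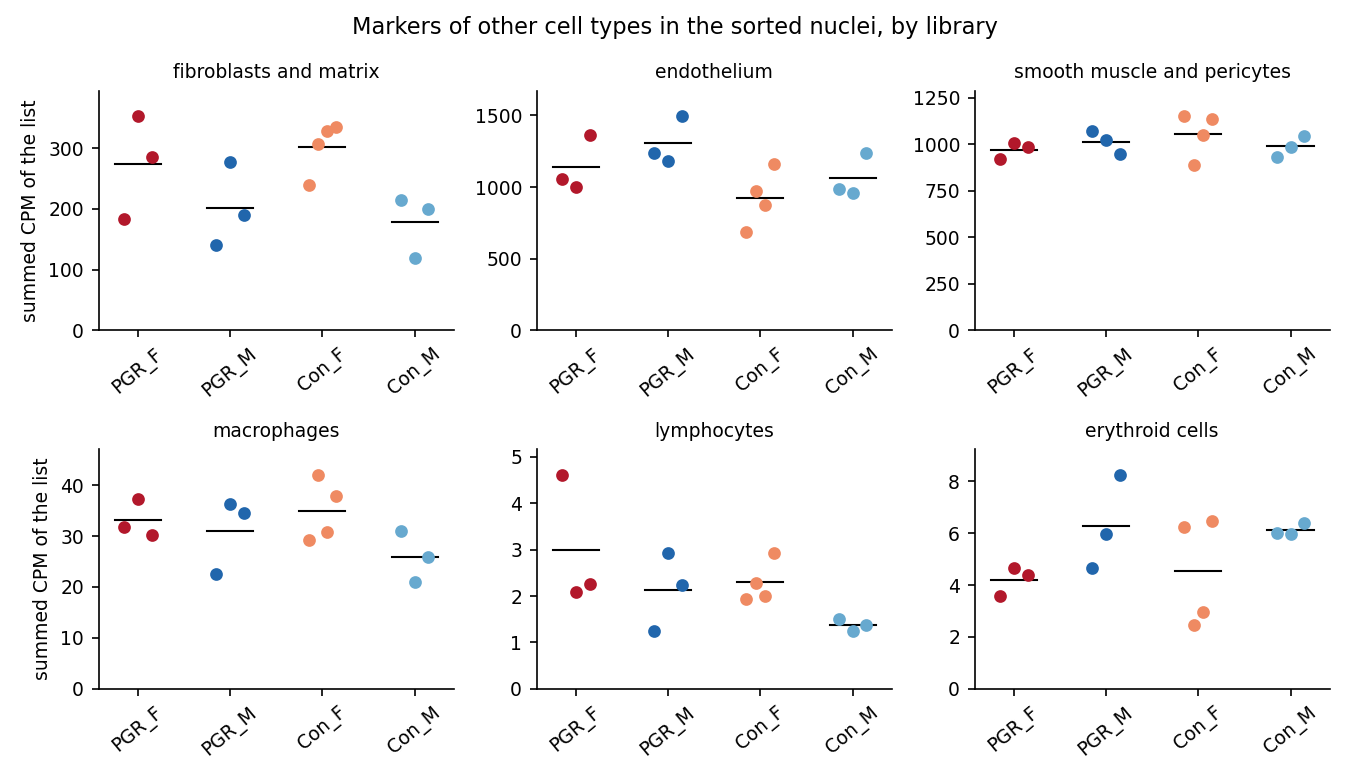
Summed CPM of the marker genes of each other cell type in the 13 libraries (points, linear axis from 0), by vector and sex. The female and male PGR-vector libraries overlap for fibroblasts, with 183 to 352 against 141 to 276 CPM.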

How the data were processed

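RNA of Pcm1-positive ventricular nuclei was sequenced from 13 libraries in 4 groups, with ribosomal RNA depleted and directional libraries, per the labels' protocols. The deposited values are raw counts per gene, which the authors obtained with STAR 2.5.3a and featureCounts 1.5.0 listed in the submitters' processing notes, together with GRCm38 and mm10; the deposited table's name carries tags that read as full length, paired ends, reverse strand and a quality limit, and other settings are not stated. Gene length in the broader table equals the whole gene span for all 55536 genes, introns included, and overlapping genes could share or lose reads.

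The tests used edgeR 4.0.16 (R 4.3.3), with filtering by expression in 4 groups, TMM scaling, robust quasi-likelihood fits of 4 group means over 13 libraries (9 residual degrees of freedom), and Benjamini-Hochberg adjustment over 16125 genes, called under 0.05. Printed CPM use TMM-scaled library sizes. The labels do not say that replicates came from separate litters, so p-values measure the spread between these pools. Alternatives were DESeq2 1.42.0, limma-voom (limma 3.58.1), other scaling, filters and sample sets. The script was tested on simulated data. Genes were named by rank (smallest p among non-predicted genes with a mean of at least 1 log2 CPM, filled to 8 a direction), with up to 4 of smallest p per list and 5 a direction for the difference between vectors; not every gene so listed is printed. The members and the gene lists were chosen with earlier results of these data known.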

Additional observations from a re-analysis of the deposited data

Results flagged for a closer look

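Of 65 values checked for a library apart from the rest of its group, 4 stood out, all in the group of 4 control females, where chance marks about 1 in 20. Lgi1 stood at 14.1 CPM in control female 4, against 7.79 to 8.56 CPM in the others. That library also carried the Y reads, at 1.04% of the male PGR-vector level. Its Lgi1 value lay between those of the other females and of the males, and a link with the Y reads was not tested. Esr1 stood at 2.52 CPM in control female 2, against 1.69 to 1.79 CPM. Stxbp2 stood at 7.83 CPM in control female 1, against 6.87 to 7.03 CPM. The mean of the ion channel and gap junction list was 6.39 log2 CPM in control female 4, against 6.14 to 6.16 in the others. No group of the PGR vector was large enough for this check.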

How the results depend on the processing

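The count of 8 autosomal genes under the PGR vector was 60 with DESeq2, 33 with no filter on low counts, 1 with autosomes only, 19 with the replicate block, 41 in the 6 libraries alone, and 16 at an adjusted p under 0.1. DESeq2 put 32 genes higher and 28 lower in females, against 3 and 5. The count of 24 under the control vector was 204, 113, 0, 12, 8 (in its 7 libraries) and 64 in the same order. The difference between the vectors went from 0 to 1 gene with DESeq2 and to 1 with no filter. Scaling by RLE, limma-voom and the smaller deposited table kept the PGR-vector count within 8 to 9. Leaving out 1 of 13 libraries gave 1 to 25 genes under the PGR vector, 2 to 84 under the control vector and 0 for the difference. The cause of these shifts was not tested, except that the autosomes-only fit adjusts without the X and Y genes of very small p.

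Replicate numbers are shared by 2 pairs (1 and 2) and the labels do not tie them to a litter or day. The deviations of female 1 and male 1 correlated at 0.130 and those of female 2 and male 2 at 0.10, but those of female 2 and male 3 also at 0.126, and the block gave 19 calls, 7 of them shared with the 8.

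Of 3041 values of 145 named genes under these alternatives, 2934 kept both their side and whether they were called. On the same side, 54 lost and 45 gained the call, and 8 values changed sign. With the replicate block Gng2 was 0.016. Leaving out 1 library, the log2 difference ranged from −0.30 to 0.069 for Gng2 (without PGR-vector females 2 and 4), −0.030 to 0.74 for Xaf1 (females 1 and 4), −0.024 to 0.11 for Pcm1 (females 1 and 4), −0.042 to 0.091 for Stxbp2 (males 2 and 1) and −0.059 to 0.070 for Nr3c1 (males 1 and 3). Low read counts of the genes themselves limit Ryr1, Fmn2 and Cdk1.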
